A study of Mus musculus with 2 samples.

Results

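Thymic epithelial cells are the stromal cells that instruct developing T cells, and the 10 genes described here are used to recognise them: Foxn1, Psmb11, Prss16, Ly75, Ccl25, Dll4, Aire, Fezf2, Trp63 and Epcam. They were taken by name from 21701 protein-coding genes with a unique symbol on chromosomes 1 to 19 and X (GENCODE M21, mm10), and all 10 were found. DNase-seq, which maps the open DNA of nuclei by sequencing the ends that DNase I cuts, was run on whole thymus of 2 female B6CASTF1/J mice, 14 days old, the F1 cross of C57BL/6J and CAST/EiJ. Both animals form 1 group with no treatment named, labelled biological replicates 1 and 2, with different animal numbers but a shared donor identifier. There is no other group, so each result is a value per animal.

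In the cortex of the thymus, epithelial cells commit progenitors to the T lineage and present peptides for positive selection. In the medulla, epithelial cells display proteins of other organs so that self-reactive T cells are removed. Foxn1 encodes the transcription factor that both kinds of epithelium need, and Psmb11, Ccl25 and Dll4 are among the genes that depend on it. Genes taken as cortical were Psmb11 (a proteasome subunit of cortical epithelium), Prss16 (a serine protease), Ly75 (the endocytic receptor DEC-205), Ccl25 (a chemokine that attracts progenitors) and Dll4 (the Notch ligand). Aire and Fezf2, regulators of self-antigen expression, were taken as medullary. Foxn1, Trp63 (the p63 factor of epithelial stem cells) and Epcam (an epithelial adhesion molecule) were set apart as genes of both compartments.

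Epithelial cells are a small minority of the thymus, and most nuclei come from thymocytes. All 8 thymocyte marker genes (Cd3e, Cd4, Cd8a, Rag1, Lck, Ptcra, Bcl11b and Tcf7) had a peak within 500 bp of a transcription start site (TSS) in both replicates. Among all protein-coding genes, 58.6% had one in both replicates. Of 4 hepatocyte genes, 0 had one in either, against 60.4% of all genes in replicate 1 and 61.4% in replicate 2. The lists hold 96992 peaks and 276325 footprints for replicate 1 and 107968 peaks and 318099 footprints for replicate 2. A footprint is a short stretch inside open DNA that is cut less than its surroundings, as where a protein covers it. The strength of a peak is the authors' deposited signal, scaled by a factor that differs between the replicates, so strengths are ranked within a replicate. The number of reads is not known. In bulk tissue, fewer cells of a type and less open chromatin per cell cannot be told apart, and which cells gave a peak was not tested.

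The promoters with the strongest peaks, those of Ccl25, Ly75 and Aire, are shown first because they hold footprints found in both replicates. Each is the peak called in replicate 1, read from GRCm38.p6 (the assembly of mm10) on the strand of the gene, 5′ to 3′. Capitals mark bases that lay in footprints of both replicates. The positions are chr8:4325061-4325260 for Ccl25 (plus strand), chr2:60383241-60383440 for Ly75 (minus strand) and chr10:78043461-78043700 for Aire (minus strand).
Ccl25 promoter: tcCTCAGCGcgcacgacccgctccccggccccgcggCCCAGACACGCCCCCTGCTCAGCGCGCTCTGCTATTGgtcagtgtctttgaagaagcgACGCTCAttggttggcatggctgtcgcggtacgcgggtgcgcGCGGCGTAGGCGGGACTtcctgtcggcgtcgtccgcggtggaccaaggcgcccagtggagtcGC
Ly75 promoter: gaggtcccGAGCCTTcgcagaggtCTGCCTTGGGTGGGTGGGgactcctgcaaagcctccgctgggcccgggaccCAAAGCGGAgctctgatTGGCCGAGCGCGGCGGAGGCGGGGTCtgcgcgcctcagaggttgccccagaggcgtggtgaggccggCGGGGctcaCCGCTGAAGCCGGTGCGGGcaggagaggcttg
Aire promoter: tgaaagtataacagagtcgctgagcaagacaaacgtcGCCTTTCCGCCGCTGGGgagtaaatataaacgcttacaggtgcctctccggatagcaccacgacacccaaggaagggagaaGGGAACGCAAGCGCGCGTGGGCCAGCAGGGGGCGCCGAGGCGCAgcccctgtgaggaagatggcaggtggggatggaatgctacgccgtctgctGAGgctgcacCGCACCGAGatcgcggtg

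Psmb11 and Foxn1 had no promoter peak in either animal. Their RefSeq promoter windows (GRCm38.p6), from 250 bases before to 50 after the RefSeq TSS, are given for contrast at chr14:54625060-54625359 (plus strand) and chr11:78386559-78386858 (minus strand). Here capitals mark GACGC, the core letters bound by FOXN1, on either strand.
Psmb11 window: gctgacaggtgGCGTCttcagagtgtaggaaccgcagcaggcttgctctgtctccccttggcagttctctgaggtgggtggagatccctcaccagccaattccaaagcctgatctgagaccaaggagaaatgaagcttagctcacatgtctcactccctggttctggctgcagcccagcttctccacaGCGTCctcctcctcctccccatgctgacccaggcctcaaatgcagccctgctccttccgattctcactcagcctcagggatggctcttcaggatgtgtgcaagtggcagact
Foxn1 window: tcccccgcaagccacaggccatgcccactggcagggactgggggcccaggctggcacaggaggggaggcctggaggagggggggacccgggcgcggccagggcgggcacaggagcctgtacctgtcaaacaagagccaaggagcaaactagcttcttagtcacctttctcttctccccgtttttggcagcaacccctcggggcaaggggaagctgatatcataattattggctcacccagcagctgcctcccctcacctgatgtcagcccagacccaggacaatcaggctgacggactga

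The 2 matches in the Psmb11 window lay in DNA without a called peak, and the Foxn1 window held none. GACGC occurred in 27.3% of 32619 RefSeq promoter windows of this length, so a match is common. No footprint of either replicate lay within 500 bp of the annotated TSS of Psmb11 or of Foxn1.

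Promoters of 5 of the 10 genes (Ccl25, Ly75, Aire, Prss16 and Epcam) had a peak within 500 bp of an annotated TSS in both replicates, against 58.6% of all protein-coding genes. Counted by replicate, 5 were open in replicate 1 (60.4% of all genes) and 6 in replicate 2 (61.4% of all genes). These shares lie near the background, so open promoters were not a mark of this list. Foxn1, Psmb11, Fezf2 and Trp63 had a promoter peak in neither replicate, and Dll4 had one in replicate 2 only. Footprints at a promoter in both replicates were found at the same 5 genes, against 56.8% of all genes.

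**Figure D1:**
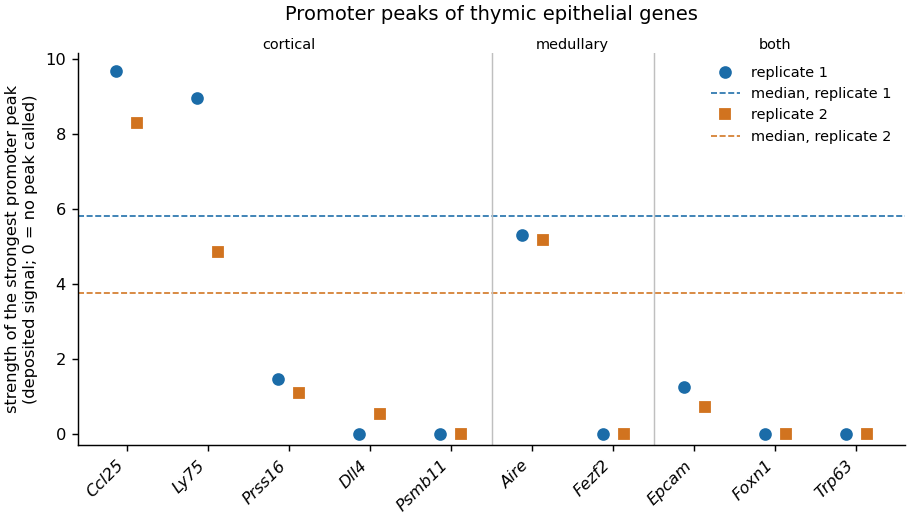
Strength of the strongest peak within 500 bp of an annotated TSS (y axis, deposited signal, no unit) for each gene and replicate, with 0 where no peak was called; dashed lines are the medians over all genes with a promoter peak in that replicate. Ccl25 and Ly75 lie above both lines, Aire lies below the line of replicate 1 and above that of replicate 2, and 4 genes lie at 0 in both replicates.

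Among cortical genes, Ccl25 had the strongest promoter peak, at 9.67 in replicate 1 and 8.28 in replicate 2. It was stronger than 67.4% of open promoters in replicate 1 and 88.1% in replicate 2. The same peak lay within 500 bp of a TSS of Elavl1, the gene of a ubiquitous RNA-binding protein on the opposite strand, and its midpoint fell in an exon of Elavl1. The 2 promoters cannot be told apart in these data. A second annotated Ccl25 start, 24355 bp downstream, had no peak and no base listed in the track of false discovery rates (FDR) in either replicate. In the peak shown above, footprints covered 76 bp in replicate 1 and 82 bp in replicate 2, and 70 bp were covered in both. A GACGC match at chr8:4325154-4325158 had 4 of its 5 bases in footprints of both replicates, and a second at chr8:4325222-4325226 had 0 in either. The match in the strongest promoter peak of Prss16 had 0 bases in footprints of either replicate. That of Epcam had 5 in footprints of replicate 1 and 0 in those of replicate 2. Of the 17583 TSS-proximal peaks found in both replicates, 39.3% held GACGC in their central 200 bp.

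Ly75 had a promoter peak of 8.95 in replicate 1 and 4.85 in replicate 2, stronger than 64.8% and 61.3% of open promoters. Its midpoint was annotated as between protein-coding genes, just upstream of the outermost TSS, and no other protein-coding TSS was within 500 bp. Footprints covered 115 bp and 100 bp of the peak, with 84 bp in both replicates. Dendritic cells, which also express Ly75, were represented by 4 marker genes. A promoter peak was called at 2 of them in replicate 1 and at 1 in replicate 2, and Zbtb46 (0.447 and 0.766) was open in both (58.6% of all genes were). Their part in the Ly75 peak was not tested.

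Prss16 had weaker promoter peaks, at 1.45 in replicate 1 and 1.08 in replicate 2, stronger than 22.03% and 20.9% of open promoters. These were different peaks: the one in an exon had 1.45 and 0.524, and one beside it in an intron had 1.18 and 1.08. Both lay at the inner of its 2 annotated TSSs, chr13:22006412-22006412 on the minus strand, which is 3329 bp downstream of the outermost one. The outermost Prss16 TSS had no peak and no listed base in the track in either replicate. Of the exon peak, chr13:22005961-22006160, footprints covered 24 bp in replicate 1 and 11 bp in replicate 2, and 0 bp were covered in both. The intron peak, which spans the inner TSS, held 2 footprints in replicate 1 and 4 in replicate 2. Their overlap between replicates was not measured.

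Dll4 and Psmb11 complete the cortical genes. Replicate 2 had a weak Dll4 promoter peak of 0.530 at chr2:119325566-119325800, stronger than 11.4% of open promoters, with 6 footprints, and it was not in the authors' shorter, stricter list. Replicate 1 had no Dll4 promoter peak and listed 0 bases under an FDR of 0.05 within 500 bp of the TSS, whereas replicate 2 listed 233 with a lowest FDR of 0.00530. Endothelial cells also express Dll4, and of 4 endothelial marker genes 2 were open in both replicates (58.6% of all genes were), Pecam1 (6.64 and 2.50) and Kdr (0.623 and 0.541). Their part in the Dll4 peak was not tested. Psmb11 had no listed base within 500 bp of its TSS in either replicate. The nearest open promoter was that of Psmb5, which encodes the related subunit of the standard proteasome, 7.28 kb upstream with 5.69 in replicate 1 and 7.20 kb upstream with 3.54 in replicate 2.

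Of the medullary genes, Aire had a promoter peak and Fezf2 had none. At Aire the peak reached 5.30 in the first animal and 5.16 in the second, stronger than 47.2% and 64.5% of open promoters. Its midpoint lay at the TSS in replicate 1 and 10 bp downstream in replicate 2. It stood alone, since no other peak was called within 10 kb of the Aire TSS in either replicate. A conserved element upstream of Aire that binds NF-kB is known to be needed for its expression in the medulla, and no peak was called within 10 kb upstream of the TSS.

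The Aire promoter peak held 4 footprints in each replicate, and 73 bp were covered in both. The widest spanned chr10:78043539-78043582 (44 bp) in replicate 1 and chr10:78043539-78043584 (46 bp) in replicate 2, and so included the TSS. It contained a match to the consensus of CTCF, the factor that anchors chromatin loops, at chr10:78043549-78043561, and all 13 bases lay in footprints of both replicates. This consensus was searched after the sequences had been seen. It occurred in 0.830% of the 17583 TSS-proximal peaks found in both replicates, and in 1 of the 5 strongest promoter peaks of the genes with an open promoter. A TATA box (TATAAA) at chr10:78043634-78043639 lay outside the footprints of both replicates. TATAAA was present in 2.34% of the TSS-proximal peaks.

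Fezf2 had no peak at any of its 3 TSSs. No peak was called in its gene body and 50 kb to each side in either replicate, and no footprint. A region without a peak in either replicate, footprints aside, was found for 1 of the 10 genes and for 6.66% of all protein-coding genes. In this region of 106.096 kb the track listed 0 bp in replicate 1 and 23 bp in replicate 2, with a lowest FDR of 0.0229.

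Among the genes of both compartments, Epcam had promoter peaks in both replicates, with the strongest at 1.26 in replicate 1 and 0.714 in replicate 2. These were stronger than 20.1% and 15.0% of open promoters. In replicate 1, 3 separate peaks lay within 500 bp of the 2 Epcam starts, and in replicate 2 the calls were up to 800 bp wide and 2 of them overlapped. The strongest peak of replicate 1, chr17:87637101-87637280, lay in an intron of Epcam. Foxn1 had no peak within 10 kb of its TSS in either replicate, and no listed base within 500 bp.

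Trp63, the longest of the 10 at 208340 bp, had no promoter peak at any of 3 TSSs, and these include the starts of its long and short protein forms. Its gene body and flanks, 308.34 kb in all, held 0 peaks in replicate 1 and 1 in replicate 2. That peak had a strength of 0.150 and lay 119.338 kb downstream of the outermost TSS. It was thus just past the innermost Trp63 start, which is 118153 bp downstream of the outermost one. The track listed 5 bp of this region in replicate 1 and 135 bp in replicate 2.

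The track gave the same picture as the peak lists at starts. In both replicates at least 1 base was listed within 500 bp of a TSS for 5 of the 10 genes, against 59.5% of all genes, and these were the genes with a promoter peak in both. At the outermost TSS alone, 4 of the 10 had a peak in both replicates (56.1% of all genes), because Prss16 was lost.

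Base composition of the RefSeq windows was described for the 8 genes that the table holds; Prss16 and Trp63 were not in it. The CpG ratio (observed over expected CpG) was 1.28 in the Ccl25 window at its outer start, higher than 99.9% of 32619 windows. That window overlaps the peak shared with Elavl1. The ratio was 0.697 for Aire, 0.634 for Ly75 and 0.454 for Epcam. It was 0.272 for Foxn1 and 0.165 for Psmb11, of which the latter exceeded 23.2% of windows. Fezf2, at 0.744, and Dll4, at 0.595, had ratios in the range of the open promoters. The median over all windows was 0.387. Thus a low ratio was seen at 2 of the genes without a peak and not at Fezf2.

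Away from promoters, 8 of the 10 genes had at least 1 distal peak (over 500 bp from every protein-coding TSS) in gene body and 50 kb flanks in both replicates, against 84.6% of all genes. Prss16 was the densest, with 19 distal peaks in replicate 1 and 25 in replicate 2, or 20.5 ± 3.94 per 100 kb (SD, n = 2). Psmb11 followed with 17 and 13 (13.9 ± 2.62 per 100 kb), and Foxn1 with 10 and 19 (11.2 ± 4.93 per 100 kb). Prss16 exceeded 96.1% of all genes in replicate 1 and 98.4% in replicate 2, and Psmb11 94.4% and 87.4%. Over all genes the medians were 4.05 and 5.06 per 100 kb. In the stricter peak list the densities (means of the replicates) fell to 13.01 for Prss16, 7.86 for Psmb11 and 6.98 for Foxn1, which was then below Aire at 7.04.

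Epcam had 8 and 13 distal peaks (9.12 ± 3.07 per 100 kb, and 4.34 in the stricter list), Aire 10 in each replicate (8.80 per 100 kb) and Dll4 8 and 9 (7.71 ± 0.642 per 100 kb). Ly75 had 9 and 6 (3.92 ± 1.11 per 100 kb) and Ccl25 2 and 5 (2.60 ± 1.57 per 100 kb). The order of Foxn1, Epcam and Aire was not resolved, since the replicates of Foxn1 (7.75 and 14.7) and of Epcam (6.95 and 11.3) spanned the Aire value. The replicates of Psmb11 (15.7 and 12.0) and Foxn1 overlapped as well. Ccl25, with the strongest promoter peak (shared with Elavl1), lay below the median of all genes in both replicates and Ly75 in replicate 2 only. Prss16, Aire and Epcam, also with promoter peaks in both replicates, lay above the median in both. Of the genes without promoter peaks, Psmb11 and Foxn1 were above the median in both replicates. Fezf2 (0 in both replicates) and Trp63 (0 and 0.324 per 100 kb) were below it.

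**Figure D2:**
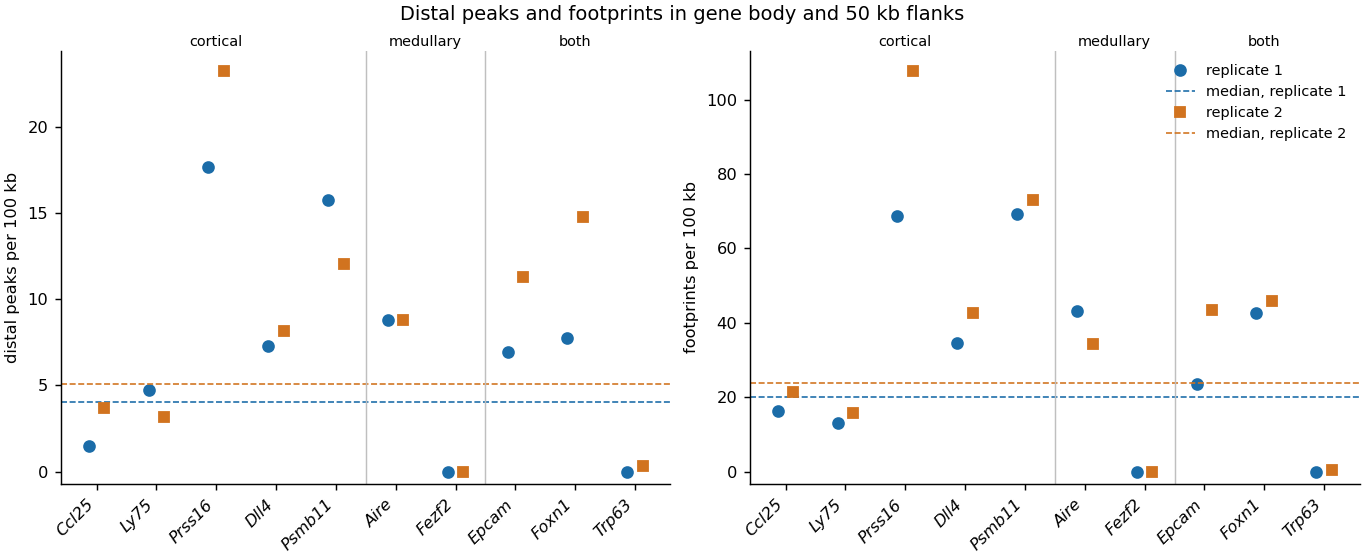
Distal peaks (left) and footprints (right) per 100 kb of gene body and 50 kb flanks, by gene and replicate; dashed lines are the medians over all protein-coding genes in each replicate. Prss16 and Psmb11 are the highest in the right panel, and Fezf2 and Trp63 lie at or near 0 in both panels.

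Distal peaks in these regions often lay near other genes. Of the 83 distal peaks of replicate 1 in the 10 regions, 69 (83.1%) overlapped a distal peak of replicate 2, against 71.9% of all distal peaks of replicate 1. Of the 101 of replicate 2, 68 (67.3%) overlapped one of replicate 1, against 61.6% overall. For 22 of the 69 shared peaks the nearest protein-coding TSS was that of the listed gene, and for the other 47 it was a neighbour's. This share was not measured for the regions of all genes, so it is not shown to be a trait of this list. No shared distal peak of Aire or of Psmb11 had its own gene as the nearest TSS. Prss16 adjoins a cluster of histone genes, and its strongest shared distal peak, at chr13:22050961-22051160 with 8.81 in replicate 1 and 4.55 in replicate 2, was nearest to Hist1h2bj.

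The starts of some neighbours were more open than those of the listed genes. The peak at Vps18 near Dll4 had 11.8 in replicate 1 and 9.74 in replicate 2, and that at Pfkl, a glycolysis gene near Aire, 10.6 and 5.72. The peak at Pigs near Foxn1 had 7.47 and 4.79. In each of these 3 cases the neighbour exceeded the listed gene in both replicates.

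**Figure D3:**
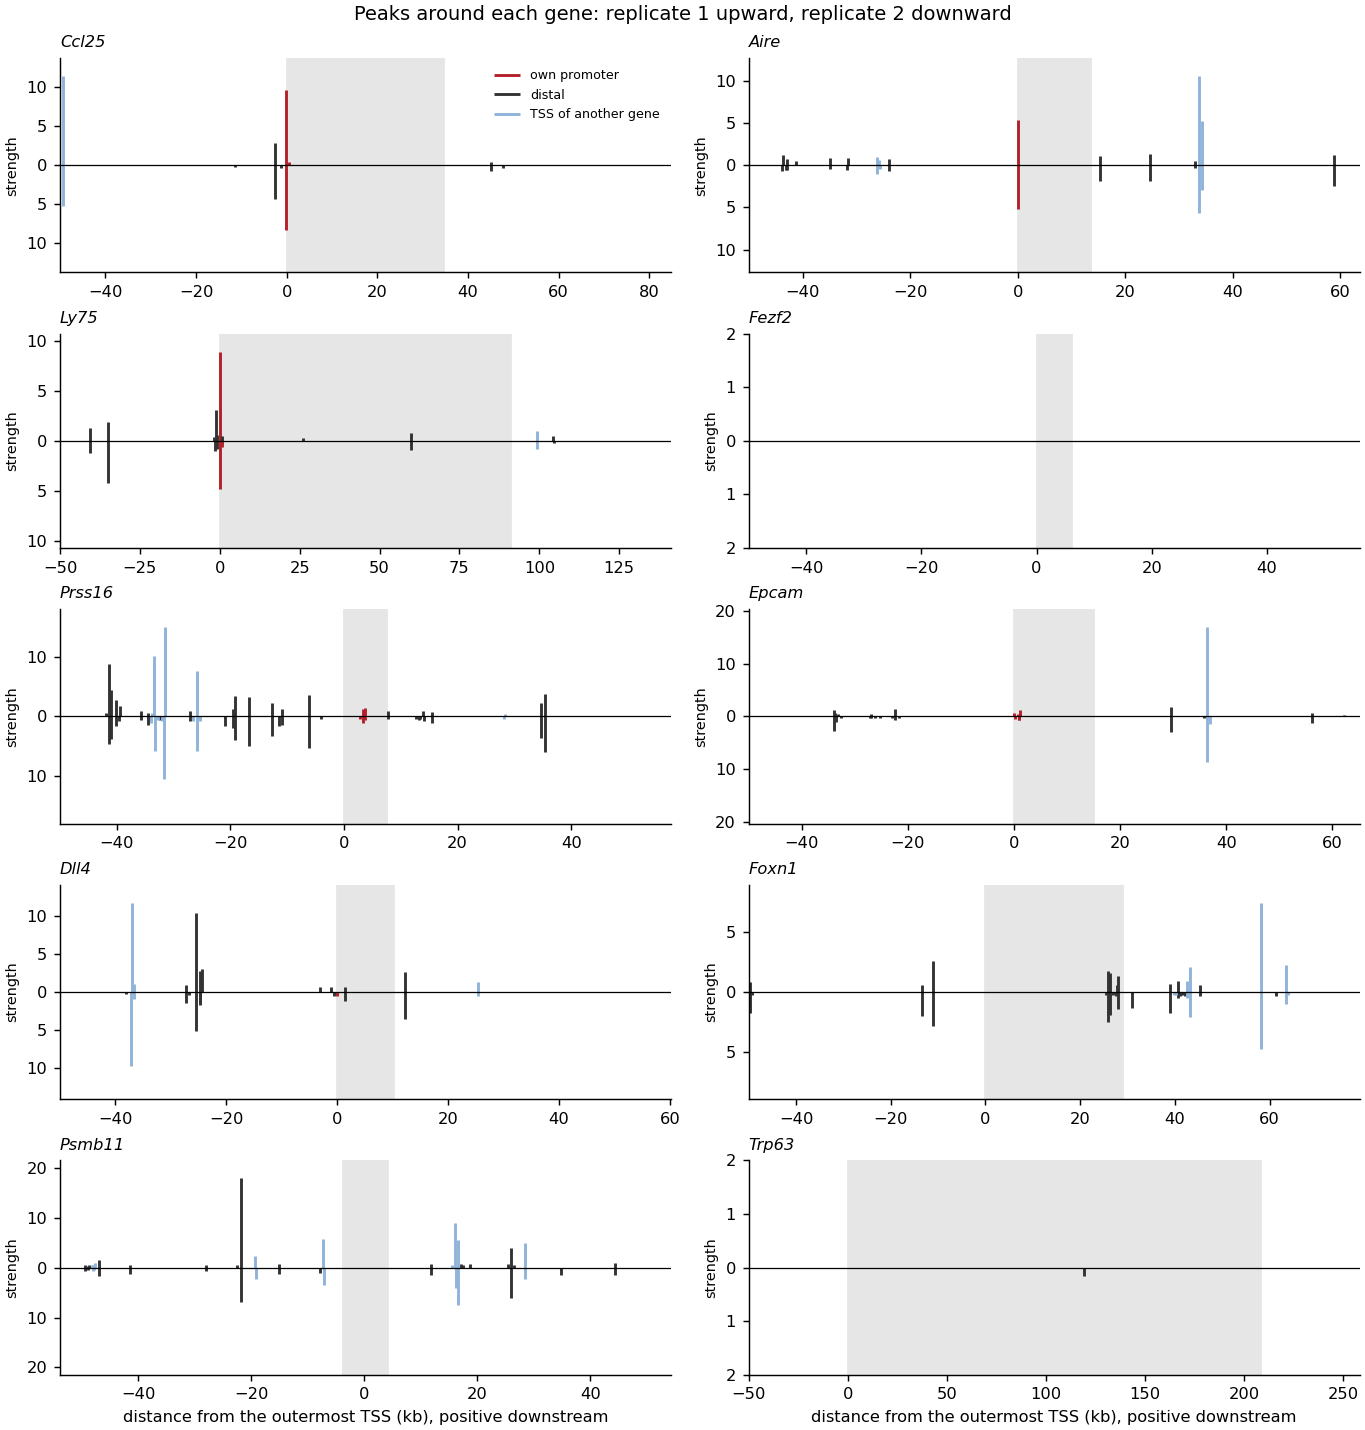
Every peak in gene body (grey) and 50 kb flanks of each gene, by distance from its outermost TSS in kb (x axis) and deposited strength (y axis, no unit, scaled per panel), with replicate 1 upward and replicate 2 downward. Aire shows 1 promoter peak with none within 10 kb, Fezf2 shows no peak, and Trp63 shows 1 in replicate 2.

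The strongest shared distal peaks (by mean rank over the replicates) of 3 genes are shown because the same string recurred in their footprints. They lay upstream of Foxn1 at chr11:78397521-78397680, of Dll4 at chr2:119300181-119300420 and of Ly75 at chr2:60418201-60418380, and are read on the strand of each gene, with capitals as above.
Foxn1 upstream: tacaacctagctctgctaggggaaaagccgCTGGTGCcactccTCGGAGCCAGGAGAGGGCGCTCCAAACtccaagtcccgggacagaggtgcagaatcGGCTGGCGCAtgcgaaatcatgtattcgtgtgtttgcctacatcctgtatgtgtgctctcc
Dll4 upstream: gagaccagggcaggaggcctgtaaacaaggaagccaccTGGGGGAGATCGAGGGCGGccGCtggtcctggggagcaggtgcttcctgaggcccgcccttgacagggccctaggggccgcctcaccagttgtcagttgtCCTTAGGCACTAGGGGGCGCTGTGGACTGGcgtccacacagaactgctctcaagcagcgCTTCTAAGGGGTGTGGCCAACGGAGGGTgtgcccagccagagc
Ly75 upstream: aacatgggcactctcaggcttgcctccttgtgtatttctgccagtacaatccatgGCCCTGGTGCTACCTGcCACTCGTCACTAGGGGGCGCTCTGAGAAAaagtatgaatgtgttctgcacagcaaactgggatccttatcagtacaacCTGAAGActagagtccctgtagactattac

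The Foxn1 element, 11.04 kb upstream and inside an exon of Slc13a2, had 2.56 in replicate 1 and 2.81 in replicate 2 and was among the stronger distal peaks, at the 88.7 and 94.1 percentile. The Dll4 element, 25.5 kb upstream and between protein-coding genes, had 10.4 and 5.18 (the 99.1 and 98.8 percentile), and its nearest TSS was that of Vps18. The Ly75 element, 35.0 kb upstream in an exon of Pla2r1, had 1.88 and 4.27 (the 83.1 and 97.8 percentile). Footprints of both replicates shared 44, 79 and 52 bp of these elements. In each, the letters AGNGGGNGC, part of the CTCF site, were covered in full by footprints of both replicates.

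AGNGGGNGC was chosen after these sequences had been read, so its presence in 6 of the 8 strongest shared distal peaks (1 per gene that had any) is no finding. On both strands it was present in 10 of the 69 shared distal peaks (14.5%), against 10.4% of all 54672 shared distal peaks and 13.2% of the 14772 of them with a mean strength percentile of at least 80. The full CTCF consensus was present in 7 of the 69 (10.1%), against 8.43% of all, and in 0 of the 8. It overlaps AGNGGGNGC in part.

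Other strings were rarer or more common in the 69 peaks than in all shared distal peaks, with counts from 1 to 14 peaks and no test. In their central 200 bp, TGTGGT (RUNX) was present in 18.8%, against 22.1% of all shared distal peaks, CCGGAA (ETS) in 8.70% against 5.86%, and CAGCTG (an E-box) in 13.04% against 20.9%. GACGC was present in 13.04% against 10.7%, and ACATGT, a half-site of p63, in 1.45% against 4.89%. GGGCGG (SP/KLF) was present in 20.3% against 11.7%, and CCAAT (NFY) in 20.3% against 18.6%. TATAAA was present in 10.1% against 5.83% and TGANTCA (AP-1) in 4.35% against 6.61%. GGGANTTTC (NF-kB) was present in 2 peaks (2.90% against 0.604%) and GCGCATGC (NRF1) in 2 peaks (2.90% against 0.810%). The 2 peaks with GGGANTTTC lay 43.7 and 42.96 kb upstream of Aire, and their nearest TSS was that of Icosl. A match is a string of letters and does not show that a factor was bound.

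A further element lay 2.55 kb upstream of Ccl25, in an intron of Elavl1, at chr8:4322581-4322780 in both replicates. Its strength was 2.78 in replicate 1 and 4.33 in replicate 2, the 90.01 and 97.9 percentile of distal peaks. It had 4 footprints in each replicate, and 81 bp were covered in both.

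The strongest distal peak around Psmb11, 21.8 kb upstream in an intron of 4931414P19Rik, had 17.9 and 6.82 and was stronger than those of all the other listed genes in both replicates. A GACGC match in it, at chr14:54603583-54603587, had all 5 bases in footprints of both replicates. Another, at chr14:54603488-54603492, had 0 in either. The GACGC match in the strongest shared distal peak of Dll4 had 1 base in footprints of both.

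Footprints were counted over the whole region, those at the starts of the gene and of its neighbours included. Distal peaks leave such starts out, so the 2 measures cover different elements. Footprints were also densest at Prss16 and Psmb11. By means of the replicates, their order was not that of the distal peaks throughout: Epcam ranked below Aire and Dll4, and Ly75 below Ccl25. The rank of Epcam was not resolved. In replicate 1 it had 23.4 per 100 kb, below Aire (43.1) and Dll4 (34.5). In replicate 2 it had 43.4, above Aire (34.3) and Dll4 (42.7). Ly75 lay below Ccl25 in both replicates. Prss16 had 74 in replicate 1 and 116 in replicate 2 (88.3 ± 27.6 per 100 kb), Psmb11 75 and 79 (71.2 ± 2.62) and Foxn1 55 and 59 (44.2 ± 2.19). Aire had 49 and 39 (38.7 ± 6.23) and Dll4 38 and 47 (38.6 ± 5.78). Epcam, with 27 and 50 (33.4 ± 14.1), differed most between the animals relative to its mean, among genes with more than 1 footprint in each replicate. Ccl25 had 22 and 29 (18.9 ± 3.67) and Ly75 25 and 30 (14.4 ± 1.85). Trp63 had 0 and 1. The medians over all genes were 20.2 and 23.9 per 100 kb.

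Cortical and medullary genes were compared by medians, without a test, because 5 and 2 genes of 1 tissue are not replicates. Promoter peaks in both replicates were called at 3 of 5 cortical genes (60%) and 1 of 2 medullary genes (50%), against 58.6% of all genes. The 3 include Ccl25, which gave the highest cortical strength and whose peak cannot be told apart from that of Elavl1. In replicate 2 alone, 4 of 5 cortical promoters were open. The median promoter strength, with 0 for no peak, was 1.45 in cortical and 2.65 in medullary genes in replicate 1, and 1.08 and 2.58 in replicate 2. The ranges overlapped in both replicates, from 0 to 9.67 against 0 to 5.30 in replicate 1 and from 0 to 8.28 against 0 to 5.16 in replicate 2. With Foxn1 counted as cortical and Trp63 and Epcam as medullary the sign of the difference turned (cortical minus medullary 0.274 in place of -1.35, mean of the replicates). Strengths of the replicates are not known to share a scale, so the size of such a mean is not read.

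Distal peaks per 100 kb had a median of 7.26 in cortical and 4.40 in medullary genes in replicate 1, and 8.17 and 4.40 in replicate 2. Cortical genes ranged from 1.48 to 17.7 in replicate 1 and from 3.14 to 23.2 in replicate 2, and medullary genes from 0 to 8.80 in both. For footprints per 100 kb the cortical medians were 34.5 and 42.7 in replicates 1 and 2, and the medullary medians 21.6 and 17.2. The medullary medians are the midpoints between Aire and Fezf2, which was at 0, and Aire alone lay above the cortical median in distal peaks in both replicates. Single genes therefore differed more within a compartment than the medians did between them.

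Other genes of thymic epithelium were described from lists chosen by function. Of 10 further cortical genes, 4 had an open promoter in replicate 1, 6 in replicate 2 and 4 in both, or 40% against 58.6% of all genes. They were led by the protease gene Ctsl at 7.57 in replicate 1 and 4.76 in replicate 2. The keratin gene Krt18 (0.561 and 0.662), Cd83 (0.400 and 0.466) and the stem cell factor gene Kitl (0.301 and 0.317) had weak peaks, stronger than at most 14.1% of open promoters.

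Of 15 further medullary genes, 6 were open in replicate 1, 8 in replicate 2 and 6 in both, or 40% against 58.6% of all genes. The NF-kB subunit gene Relb had 4.24 and 6.82, the claudin gene Cldn4 6.94 and 2.76, the RANK gene Tnfrsf11a 0.904 and 2.30 and the tuft cell channel gene Trpm5 0.950 and 1.67. Cd40 and Ltbr, receptors that act in the medulla, were the others. Several genes of these lists, Relb and Ctsl among them, are also expressed by other cells of the thymus.

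Of 10 genes of thymus organogenesis, the same number, 6, was open in replicate 1, in replicate 2 and in both (60% against 58.6% of all genes), with Tbx1 at 1.10 and 1.34, Eya1 at 0.483 and 0.345 and Pax9 at 0.452 and 0.334. These 3 were stronger than at most 24.3% of open promoters in either replicate. The 8 thymocyte genes ranged from 3.33 (Cd4) to 17.3 (Lck) in replicate 1 and from 1.63 (Cd4) to 4.99 (Lck) in replicate 2. Median distal peaks per 100 kb were 6.16 and 5.98 for the further cortical, 5.38 and 4.78 for the further medullary and 3.65 and 3.56 for the organogenesis genes, against 23.6 and 24.6 for the thymocyte markers.

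**Figure D4:**
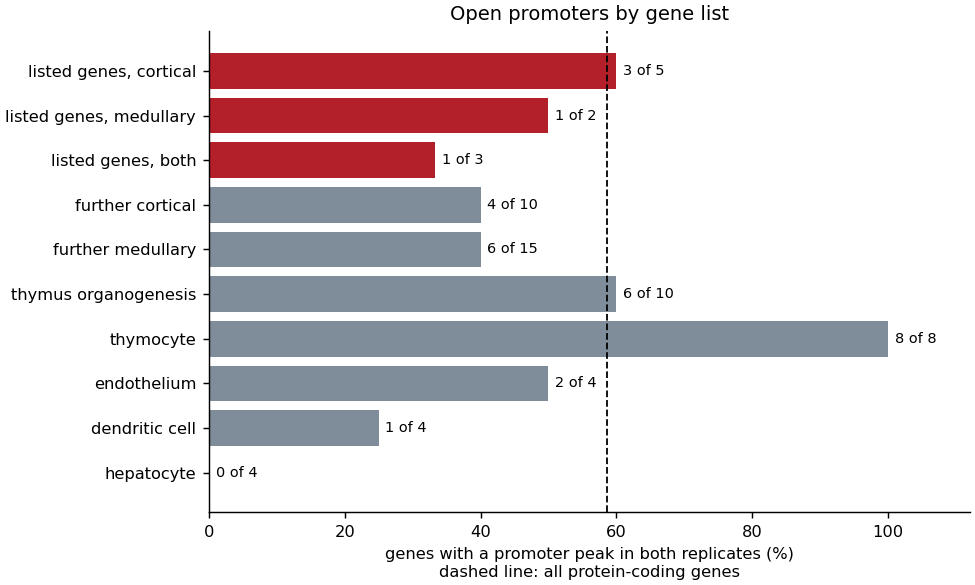
Share of genes with a promoter peak in both replicates (x axis, percent) for the listed genes by compartment and for the other gene lists, with the counts beside the bars; the dashed line is the share of all protein-coding genes, 58.6%. The 8 thymocyte genes are all open, and the epithelial lists lie between 33.3% and 60%.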

How the data were processed

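The deposited files of each replicate hold peaks with a signal per peak, a track of false discovery rates (q-values, only runs of bases under 0.05 listed) and footprints. Per the file listings deposited by the authors, each came from 1 library aligned to mm10, without pooling. Not given in the sources used here are aligner, callers, settings and handling of CAST alleles. A score column in the footprint files is constant and was not used.

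From the longer of 2 deposited peak lists, a promoter peak shared at least 1 bp with a window of 500 bp to each side of any TSS in the GENCODE M21 basic set; 27 duplicated symbols were left out. Distal peaks and all footprints, those at starts included, were counted in gene body and 50 kb flanks. Percentiles are shares of genes or peaks with lower values, except that ranks of distal peaks include the peak itself. Counting was tested on simulated data. Motifs were searched on both strands; both CTCF strings were added after the sequences were seen. The CpG ratio is CpG count times length over C count times G count. The genes and lists were chosen with earlier results of these data known. The naming rule took all 10 genes with their promoter peaks and 3 strongest shared distal peaks, neighbours whose TSS lay at a peak, and the 4 strongest open genes of each epithelial and thymocyte list; Ltbr, Cd40, Pecam1, Kdr and Zbtb46 were named after their values were seen. Some genes that the rule takes are not reported here. No p-values were computed, since 1 group of 2 animals allows no test. Python 3.11.15, numpy 2.4.6, pandas 2.3.3 and pysam 0.24.0 were used.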

Additional observations from a re-analysis of the deposited data

How the results depend on the processing

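The number of listed genes with a promoter peak in both replicates stayed at 5 with windows of 250 or 1000 bp, with the stricter list and with peak midpoints, was 4 at the outermost TSS, and was 5 to 6 with 1 replicate left out. The cortical minus medullary difference in median promoter strength, -1.35, became -2.35 at the outermost TSS and turned to 0.274 with Foxn1 counted as cortical and Trp63 and Epcam as medullary, a change made by the regrouping itself. It ranged from -1.50 to -1.20 with 1 replicate left out. Values with both replicates are means of strengths not known to share a scale. The difference in distal peaks per 100 kb, 3.31, was 5.99 with 25 kb flanks, 1.98 with 100 kb flanks, 4.27 with peaks at neighbours' starts counted, 1.92 with the stricter list, 4.78 with the regrouping, and 2.86 to 3.77 with 1 replicate left out. The difference in footprints per 100 kb, 19.2, was 12.9 to 25.5 with 1 replicate left out and kept its sign in the 4 other alternatives run. Among genes above 0, and leaving aside the omission of a replicate, 7 of 30 promoter percentiles, 16 of 36 distal densities and 13 of 27 footprint densities moved by more than the SD of the replicates (0 for Aire's distal peaks, so that any change counts); the cause was not tested. Distal densities that moved over 1.5 times, besides those in the stricter list, were Psmb11 at 21.3 with neighbours' starts counted, Dll4 at 5.00 and Trp63 at 0.612 with 100 kb flanks, and Epcam at 5.37 and Ccl25 at 4.13 with 25 kb flanks. Footprint densities that did so were Ccl25 at 30.02 and Trp63 at 1.35 with 100 kb flanks. No paired analysis was possible because there is 1 group. Depth is unknown, so a promoter without a peak is one not called at this depth.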
